A study of Mus musculus with 7 samples.

Results

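Immediate early genes are the genes that a neuron switches on within minutes of firing, before any new protein has been made. The 43 genes described here were named by symbol, from what is known of this class of genes. They were chosen with earlier results of these data known, so their shares beside those of all genes are descriptions. Of the 43, 42 are in the count table of 20859 genes, and Csrnp1 was not analysed here. After a filter on low counts, 39 were tested in cortex and 38 in hippocampus. Atf3, Maff and Pim1 did not pass the filter in either region, and Sik1 did not pass it in hippocampus.

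The study sequenced bulk cortex and hippocampus from 24 mice as 47 wells in 7 library pools, with 3' tag libraries (mcSCRB-seq). Wild type (WT) mice had been given PBS. Mice of a line labelled FAD, which models Alzheimer's disease, had been given control immunoglobulin (IgG) or a treatment labelled CD38, which by the title of the series targets CD38, an enzyme that consumes NAD. The groups used here hold 9 WT, 7 FAD IgG and 7 FAD CD38 mice in cortex and 8, 7 and 7 in hippocampus. Of these mice, all but 1 WT mouse gave both regions. The sources used here give no transgene, age, sex, dose or time of killing. WT mice differed from FAD mice both in genotype and in what was injected, so these cannot be told apart in any comparison with WT. No group comparison uses the 2 wells of 1 mouse that is IgG by name but CD38 in the sample sheet. Well totals ran from 1270918 to 5101368 counts.

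As background, the genes of the list fall into roles. Calcium entry during firing activates kinases that phosphorylate CREB and SRF, transcription factors already bound at the promoters of these genes. Their first products are mostly transcription factors of the AP-1, EGR and NR4A families, together with NPAS4, which answers to calcium entry more selectively than the others. Other products are brakes, such as the dual-specificity phosphatases that switch the MAP kinases off again. A last set acts at the synapse or is secreted, such as Arc, which takes AMPA receptors from the membrane, and the growth factor BDNF.

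Promoter sequences are shown for 4 of the genes that fell against WT (Npas4, Nr4a1, Dusp1 and Dusp5) and for Fosb, one of the genes far above the rest in 1 mouse described below. Each is the 250 bases before the annotated start in RefSeq, build GRCm38.p6, written 5' to 3' on the gene's strand. Capitals mark matches on either strand to TGACG (the short CRE), TGACGTCA (the full CRE, which contains the short one), TGANTCA (AP-1), GCGNGGGCG (EGR) and the CArG box, the site of SRF. The regions are chr19:4989972-4990221 on the minus strand for Npas4, chr15:101266596-101266845 on the plus strand for Nr4a1, chr17:26508473-26508722 on the minus strand for Dusp1, chr19:53528895-53529144 on the plus strand for Dusp5 and chr7:19310046-19310295 on the minus strand for Fosb.
Npas4: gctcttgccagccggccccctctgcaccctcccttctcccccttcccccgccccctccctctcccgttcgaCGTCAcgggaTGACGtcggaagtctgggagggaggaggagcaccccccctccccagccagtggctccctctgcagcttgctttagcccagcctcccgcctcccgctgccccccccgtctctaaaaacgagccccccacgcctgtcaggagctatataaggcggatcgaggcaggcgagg
Nr4a1: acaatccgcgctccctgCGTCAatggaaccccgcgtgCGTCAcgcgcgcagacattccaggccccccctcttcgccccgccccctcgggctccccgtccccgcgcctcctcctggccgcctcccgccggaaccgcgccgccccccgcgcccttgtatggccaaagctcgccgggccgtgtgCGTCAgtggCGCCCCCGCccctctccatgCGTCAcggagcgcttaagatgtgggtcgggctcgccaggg
Dusp1: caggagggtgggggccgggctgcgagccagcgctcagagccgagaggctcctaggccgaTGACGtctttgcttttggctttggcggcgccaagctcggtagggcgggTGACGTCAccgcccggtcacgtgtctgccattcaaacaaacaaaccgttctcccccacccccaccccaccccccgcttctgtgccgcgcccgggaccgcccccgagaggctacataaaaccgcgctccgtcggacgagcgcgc
Dusp5: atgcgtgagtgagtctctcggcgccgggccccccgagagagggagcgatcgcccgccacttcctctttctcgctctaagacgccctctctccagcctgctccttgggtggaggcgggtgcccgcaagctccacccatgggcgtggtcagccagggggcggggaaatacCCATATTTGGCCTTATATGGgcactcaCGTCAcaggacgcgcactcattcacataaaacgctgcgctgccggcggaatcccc
Fosb: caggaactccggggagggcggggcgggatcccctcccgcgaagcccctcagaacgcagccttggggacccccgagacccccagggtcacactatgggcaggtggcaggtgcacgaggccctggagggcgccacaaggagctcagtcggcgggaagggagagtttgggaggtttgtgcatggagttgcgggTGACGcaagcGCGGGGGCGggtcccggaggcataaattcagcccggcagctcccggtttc
All 5 hold at least 1 short CRE. Nr4a1 holds 4 of them and an EGR match, Dusp1 a full CRE and Dusp5 a pair of CArG boxes next to its short CRE. Of the list, 34 genes had 53 annotated starts in RefSeq, and 30 of their 53 windows (250 bases before to 50 after the start) held a short CRE, 56.6% against 20.8% of all 32851 windows. The full CRE was in 7.55% of the windows of the list against 1.79% of all, the EGR site in 17.0% against 5.55%, the CArG box in 9.43% against 1.63% and the AP-1 site in 3.77% against 7.81%. The 5 windows with a CArG box belong to only 2 of the 34 genes, Dusp5 and Egr2. The windows were not matched for base composition, several belong to 1 gene, and a match is a run of letters, not a measured binding site.

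Some mice stood apart, and this bears on what follows. The FAD CD38 mouse of pool 7 had levels of a subset of the list far above those of every other mouse, in both of its regions. Levels are given as CPM, counts divided by the well's total and scaled up, which in a 3' tag assay do not scale with gene length and are compared here only within a gene. Fosb, an AP-1 partner of the Jun proteins, was at 120.4 CPM in its cortex and 101 CPM in its hippocampus, where no other well exceeded 11.1 and 7.44 CPM. Nptx2, a secreted pentraxin that clusters AMPA receptors, was at 263 and 167 CPM, against 21.6 and 12.05 CPM in the highest of the other wells. Inhba, the activin A subunit, was at 168 and 317 CPM, Egr3 at 254 and 311 CPM, Gadd45b at 157 and 203 CPM, Bdnf at 323 and 322 CPM and Homer1 at 306 and 399.7 CPM. Its cortex was above all 23 other cortical wells for 18 of the 39 tested genes of the list and for 10.2% of all genes tested. Its hippocampus was above all 22 other wells for 22 of 38 and for 13.5% of all genes tested. It exceeded the next well more than 2-fold for 8 genes of the list in cortex (0.601% of all genes tested) and 12 in hippocampus (1.30%). Over 2-fold above all other wells in both regions were 38 of 12467 genes, of which 8 belong to the list.

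The departure of this mouse was not shared by the whole list. Npas4 was at 1.90 CPM in its cortex and 0.700 CPM in its hippocampus (4 and 1 counts), the lowest of all hippocampal wells. Egr1, Egr2, Nr4a1, Dusp1 and Ier2 lay within the range of the other FAD CD38 mice in both regions. Klf4 (1.42 CPM, 3 counts) and Klf2 (25.1 CPM) were below every other well in its cortex, and so were both in its hippocampus (2.80 and 7.70 CPM). Dusp6 (32.7 CPM) was the third gene of the list that was lowest there in cortex. Its well was thus the lowest for 3 of 39 genes in cortex, where it was so for 9.00% of all genes, and for 3 of 38 in hippocampus, where it was so for 25.2% of all genes. Activity-induced genes outside the list were also high, with Cdkn1a, a cell cycle inhibitor, at 405 and 167 CPM where no other well exceeded 57.8 and 38.4 CPM, and Ptgs2, the inducible cyclooxygenase, at 34.1 and 32.9 CPM. The hippocampal well of this mouse had 1428454 counts, below the 1738997 to 4771349 of the others, and 1.25% mitochondrial counts where the others had 4.11 to 6.80%. Its summed microglial, dentate gyrus, CA pyramidal and oligodendrocyte markers (889, 169, 222 and 2377 CPM) were below those of all other FAD hippocampal wells. Its cortical well lay within the range of the others in total, mitochondrial and ribosomal share. Pan-neuronal markers summed to 6294 CPM in it, above the other cortices of agreed label, and microglial markers to 969 CPM, below all other FAD cortices. The part of these features in the levels was not tested. Counts for the comparisons that use FAD CD38 mice are therefore given with and without this mouse, a choice made after its values were seen.

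**Figure D1:**
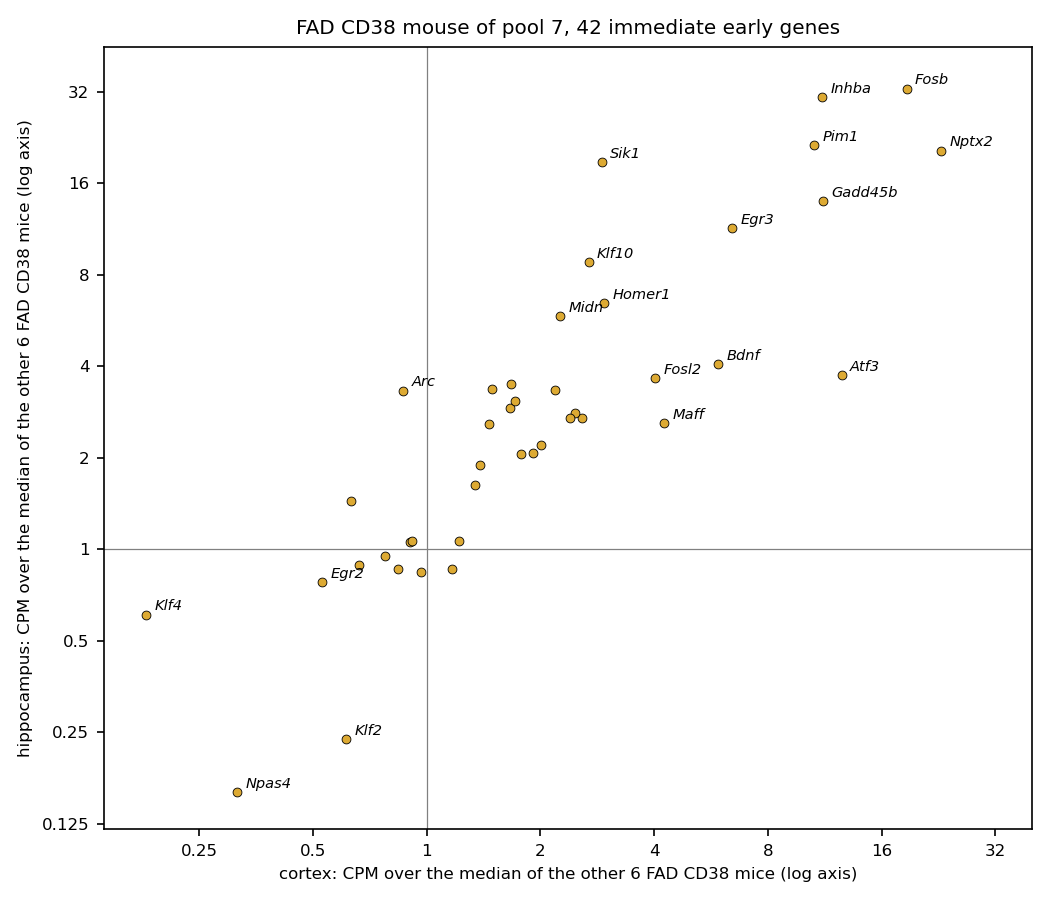
Fold of the level (CPM) in the FAD CD38 mouse of pool 7 over the median of the other 6 FAD CD38 mice, cortex on the horizontal and hippocampus on the vertical log axis, with 1 point for each of the 42 genes. Fosb (18.6-fold and 32.8-fold), Nptx2 (23.0-fold and 20.5-fold) and Inhba (11.2-fold and 30.8-fold) lie at the upper right, and Npas4, Klf2 and Klf4 lie below 1 in both regions.

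The WT mouse of pool 6 was the highest of the WT mice for 15 of the 42 genes in cortex and for 15 in hippocampus. The same count was not made over all genes, so it is not shown to be particular to the list in this mouse. Its Npas4 was at 30.2 and 8.88 CPM, Dusp1 at 217 and 105 CPM, Ier2 at 104 and 71.0 CPM, Junb at 315 and 254 CPM and Arc at 214 and 128 CPM, in cortex and hippocampus. This mouse, unlike that of pool 7, was high in Npas4 and Dusp1, while its Fosb (10.5 and 4.87 CPM) was not the highest of WT. Its hippocampal well had the lowest ribosomal share (3.10%) and the highest mitochondrial share (6.80%) of all hippocampal wells, and their part was not tested. Calls lost without pool 6 are named below.

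**Figure D2:**
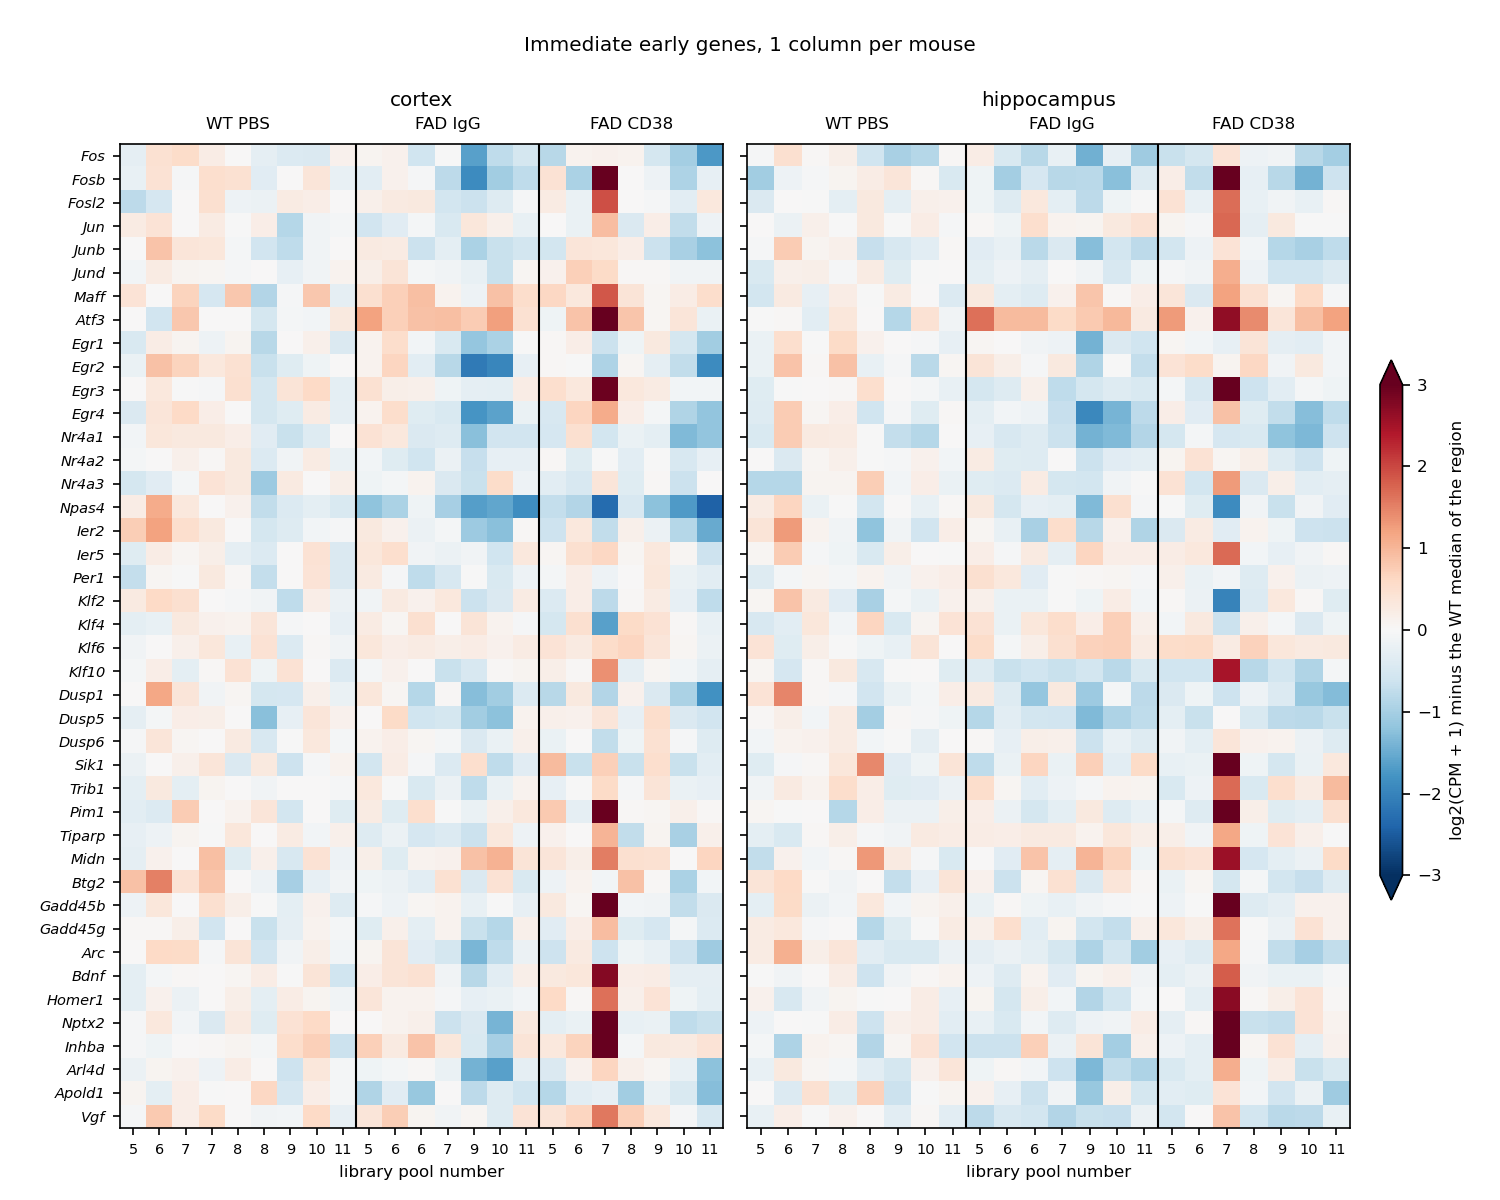
Level of 42 immediate early genes in each mouse, as log2(CPM + 1) minus the median of the WT mice of the same region, with colours cut at 3 in either direction; columns are mice labelled by library pool. The FAD CD38 column of pool 7 stands out in both regions, with Fosb, Nptx2 and Inhba at the limit of the colours.

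In FAD IgG mice against WT mice, genes of the list were mostly lower. Each region was tested with edgeR's quasi-likelihood test with the pool as a factor, and the mean of both regions with limma and the mouse as a block; called means a two-sided Benjamini-Hochberg adjusted p under 0.05 over all genes tested. In cortex 1 gene of the list fell (Npas4) and none rose, where 0.532% of all 12968 genes were called lower and 3.34% higher. In hippocampus 3 fell (Nr4a1, Dusp5 and Junb) and none rose, against 0.416% lower and 4.48% higher of 12728 genes. Over the mean of both regions 7 of 39 fell (Npas4, Nr4a1, Junb, Dusp5, Egr4, Arc and Dusp1) and 1 rose (Klf6), against 1.71% lower and 5.97% higher of 12915 genes. The log2 fold change was below 0 for 32 of 39 genes of the list in cortex (all genes 48.3%), 29 of 38 in hippocampus (all genes 49.5%) and 34 of 39 in the mean of both (all genes 50.5%), with medians of -0.21, -0.21 and -0.23 against 0.010, 0.0034 and -0.0026 over all genes. Counts below 0 in each region were the same with RLE factors and with DESeq2. These are bulk tissues, in which fewer cells of a type and less RNA per cell cannot be told apart.

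Npas4, the transcription factor most selective for neuronal firing, had the largest fold among the called genes. In cortex it was at 7.70 to 30.2 CPM in WT mice (median 13.4), 2.99 to 12.3 CPM in FAD IgG mice (median 5.29) and 1.67 to 9.34 CPM in FAD CD38 mice (median 5.14). The WT median lies above every mouse of both FAD groups, while the lowest WT mice overlap the highest FAD mice. The cortical log2 fold change of FAD IgG against WT was -1.49 (SE 0.238, edgeR adjusted p = 0.00013), and within pools Npas4 was lower in 6 of 6. In hippocampus the ranges were 3.29 to 8.88 CPM in WT (median 5.30), 1.51 to 7.76 CPM in FAD IgG (median 4.31) and 0.700 to 5.30 CPM in FAD CD38 mice (median 4.02), which overlap through most of their length. The hippocampal log2 fold change was -0.30 (adjusted p = 0.66), and Npas4 there rests on 1 to 31 counts per well. Beside the cortical value, 12 striatal markers summed to 483 to 945 CPM in WT cortex, 268 to 799 CPM in FAD IgG and 253 to 652 CPM in FAD CD38 cortex. All 11 striatal markers tested in cortex had log2 fold changes below 0 against WT, none called by edgeR and 8 at an unadjusted p under 0.05; their part in the Npas4 value was not tested. Of 9 pan-neuronal markers tested, none was called by edgeR in cortex (0 at an unadjusted p under 0.05) or in hippocampus (1).

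The other early transcription factors with no family of their own split in direction. Klf6, a zinc finger factor that many injured and immune cells also express, was the 1 gene of the list that rose, by a log2 fold change of 0.33 in the mean of both regions (SE 0.094, limma adjusted p = 0.0173). Its cortical levels were 49.9 to 89.5 CPM in WT (median 66.2) and 72.4 to 83.9 CPM in FAD IgG mice (median 77.7), and its hippocampal levels 33.2 to 57.6 CPM (median 43.3) and 41.2 to 71.1 CPM (median 60.5). Every FAD IgG cortex lay above the WT median but within the WT range, in hippocampus 4 of 7 FAD IgG mice lay above every WT mouse, and within pools Klf6 was higher in 6 of 6 pools in hippocampus and 5 of 6 in cortex. Microglial markers moved in the same direction and further: 10 of 10 rose in the mean of both regions, and their sum was 316 to 450 CPM in WT and 1044 to 1663 CPM in FAD IgG cortex, 242 to 379 CPM and 1249 to 1688 CPM in hippocampus. Their part in the Klf6 value was not tested. Ier2 (-0.54, adjusted p = 0.064), Klf10 (-0.35), Klf2 (-0.16) and Klf4 (0.34) did not pass in the mean of both regions.

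Among the AP-1 genes, Junb fell. In hippocampus Junb was at 91.8 to 254 CPM in WT (median 149.8) and 61.2 to 127 CPM in FAD IgG mice (median 103), with a log2 fold change of -0.63 (SE 0.181, edgeR adjusted p = 0.0495). In cortex its ranges were 102 to 315 CPM (median 174) and 90.0 to 209.6 CPM (median 119), and in the mean of both regions it fell by 0.53 on the log2 scale (SE 0.129, limma adjusted p = 0.0038). The groups overlapped in both regions, and Junb was lower within 6 of 6 pools in hippocampus and 5 of 6 in cortex. Fos, the archetype of the family, had levels of 30.9 to 61.9 CPM in WT cortex (median 42.1) and 12.9 to 46.2 CPM in FAD IgG cortex (median 29.1), and of 9.92 to 28.9 CPM (median 20.5) and 6.93 to 24.1 CPM (median 14.8) in hippocampus. Its log2 fold change in the mean of both regions, -0.41, was not called (limma adjusted p = 0.127). All 6 AP-1 genes tested had values below 0 in cortex and in the mean of both regions, and 5 of 6 in hippocampus, where Jun was at 0.15.

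Atf3, an AP-1 partner induced by stress and injury, had higher levels in FAD mice, but it did not pass the filter used for the tests. It was at 0.419 to 2.73 CPM in WT cortex (median 1.12) and 1.90 to 3.93 CPM in FAD IgG cortex (median 2.87), and at 0 to 1.47 CPM (median 0.814) and 1.20 to 4.72 CPM (median 2.51) in hippocampus, from 0 to 39 counts per well. In FAD CD38 mice it was at 0.834 to 18.5 CPM in cortex (median 1.73) and 0.977 to 10.5 CPM in hippocampus (median 3.21), with the mouse of pool 7 at the top of both. It would pass a looser filter only through FAD wells, so no test of it is given. The microglial sums given above also differ between WT and FAD mice, and their part in these levels was not tested.

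Of the EGR factors, zinc finger proteins that carry the activity signal to later genes, all 4 had values below 0 in each region. Egr4 was called in the mean of both regions, at -0.67 (SE 0.188, limma adjusted p = 0.0179). In hippocampus Egr4 was at 29.2 to 76.7 CPM in WT (median 44.6) and 10.9 to 42.1 CPM in FAD IgG mice (median 27.2), so that the FAD IgG mice lie below the WT median (-0.87, SE 0.252, edgeR adjusted p = 0.053). In cortex the ranges were 49.5 to 109 CPM (median 71.5) and 20.4 to 103 CPM (median 55.8). Egr1, the EGR gene used most widely as an activity marker, was at 93.8 to 198 CPM in WT and 74.8 to 244 CPM in FAD IgG cortex, and at 43.1 to 77.2 CPM and 18.4 to 52.9 CPM in hippocampus, with medians of 169, 160.3, 51.1 and 45.7 CPM. Its mean log2 fold change of -0.34 was not called (limma adjusted p = 0.18), nor were those of Egr2 (-0.46) and Egr3 (-0.24).

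Nr4a1 is an orphan nuclear receptor induced by CREB. In hippocampus it was at 14.7 to 47.2 CPM in WT (median 27.3), 9.64 to 22.8 CPM in FAD IgG (median 17.0) and 10.1 to 26.0 CPM in FAD CD38 mice (median 18.6). Every FAD mouse lay below the WT median, with overlap at the lower end of WT. Its hippocampal log2 fold change of FAD IgG against WT was -0.74 (SE 0.152, edgeR adjusted p = 0.0035). In cortex the ranges were 27.1 to 55.7 CPM (median 43.9), 17.8 to 59.8 CPM (median 32.4) and 17.0 to 62.1 CPM (median 30.5), and in the mean of both regions Nr4a1 fell by 0.57 on the log2 scale (SE 0.135, limma adjusted p = 0.0030). Its relatives Nr4a2 and Nr4a3, at -0.27 and -0.12, were not called. Beside the hippocampal values, 2 of 6 CA pyramidal markers, Spink8 (-1.08) and Fibcd1 (-0.44), were called lower in FAD IgG hippocampus. Of the 6, 4 had log2 fold changes below 0 and 2 above it, up to 0.50. None of 7 dentate gyrus markers was called, with 5 below 0 and 2 above it. The part of cell composition was not tested.

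Among the brakes, Dusp5, a nuclear phosphatase for ERK, fell in hippocampus. It was at 16.9 to 42.2 CPM in WT (median 35.5) and 13.6 to 28.4 CPM in FAD IgG mice (median 20.4), with a log2 fold change of -0.79 (SE 0.173, edgeR adjusted p = 0.0070) and lower values in 6 of 6 pools. All FAD IgG mice lay below every WT mouse but the lowest. In cortex Dusp5 overlapped broadly, at 7.70 to 25.7 CPM in WT (median 19.7) and 7.87 to 29.9 CPM in FAD IgG mice (median 13.5), and in the mean of both regions it fell by 0.55 (SE 0.146, limma adjusted p = 0.0091). Dusp1, which inactivates p38 and JNK as well as ERK, was at 66.4 to 217 CPM in WT and 39.2 to 124 CPM in FAD IgG cortex, and at 24.7 to 105 CPM and 16.2 to 45.9 CPM in hippocampus, with medians of 96.9, 72.8, 37.3 and 28.4 CPM. Its mean log2 fold change was -0.61 (SE 0.188, limma adjusted p = 0.0339), and the WT mouse of pool 6 gives the top of both WT ranges. Dusp6 (-0.14), the kinase Sik1 (-0.16) and the pseudokinase Trib1 (-0.05) were not called. The growth arrest genes Btg2 (-0.28), Gadd45b (-0.16) and Gadd45g (-0.14) were all below 0 and none was called.

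Among the effectors, Arc was the 1 gene called. Arc was at 94.3 to 214 CPM in WT and 54.4 to 184 CPM in FAD IgG cortex (medians 141 and 111), and at 44.0 to 128 CPM and 28.8 to 54.1 CPM in hippocampus (medians 61.3 and 41.6). The highest FAD IgG hippocampus lay below the WT median, and the mean log2 fold change was -0.61 (SE 0.175, limma adjusted p = 0.0203). Bdnf was at 30.8 to 61.8 CPM in WT and 25.9 to 65.2 CPM in FAD IgG cortex, and at 58.0 to 106 CPM and 69.1 to 101 CPM in hippocampus, with medians of 47.2, 53.5, 90.4 and 83.9 CPM. Its mean log2 fold change was 0.0080, the smallest of the effectors. Homer1, a postsynaptic scaffold whose short form is activity-induced, had medians of 96.6 CPM in WT and 93.6 CPM in FAD IgG cortex (78.4 to 113 and 81.9 to 124) and of 60.01 and 56.6 CPM in hippocampus (42.4 to 70.4 and 32.2 to 67.5). Nptx2 had medians of 13.9 and 14.1 CPM in cortex (10.0 to 21.6 and 4.72 to 17.4) and of 8.82 and 7.84 CPM in hippocampus (5.35 to 10.5 and 6.13 to 10.4). Neither was called, at -0.07 and -0.23 in the mean of both regions, and the groups overlap through most of their ranges. Arl4d (-0.47, adjusted p = 0.074), Apold1 (-0.44), Vgf (-0.34) and Inhba (0.11) were not called either.

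**Figure D3:**
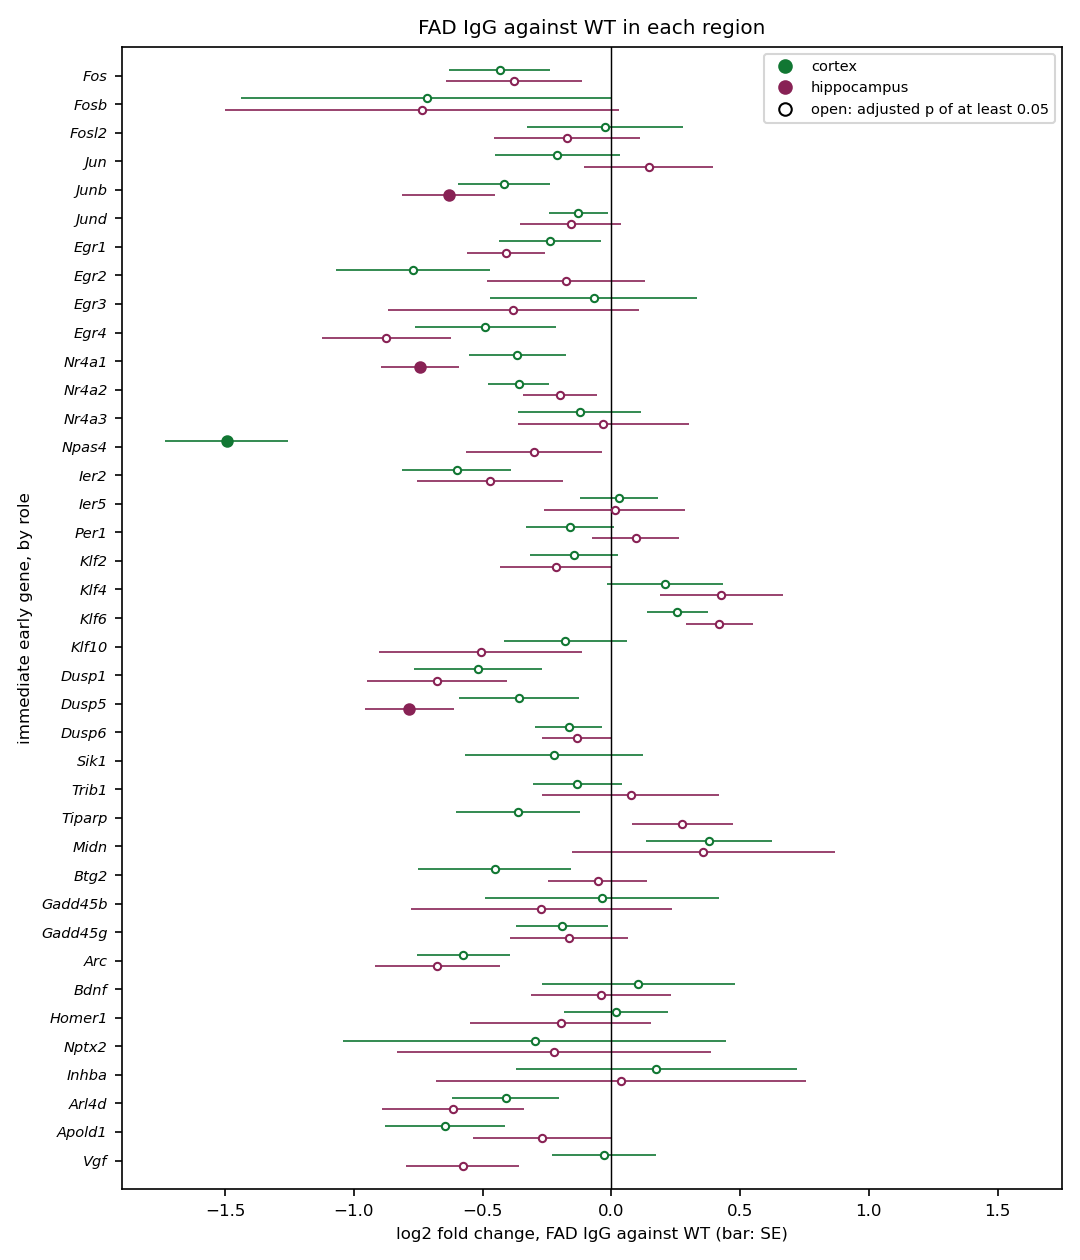
Log2 fold change of FAD IgG against WT with its standard error for each tested gene of the list, in cortex and hippocampus, ordered by role; filled points passed an adjusted p of 0.05. Npas4 in cortex and Nr4a1, Dusp5 and Junb in hippocampus are filled, and 32 of 39 cortical and 29 of 38 hippocampal points lie left of 0.

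Not all of these calls are equally stable. Npas4 in cortex was called in all 19 alternatives (-1.71 to -1.33), and Dusp5 in hippocampus in all 19 (-0.87 to -0.71). Without pool 6 the hippocampal count went from 3 to 1 and that of the mean of both regions from 8 to 3, with Nr4a1, Junb, Arc, Dusp1 and Klf6 no longer called in the mean. The count of the mean was 3 also without pool 9 and 5 without pool 10, and the hippocampal count was 6 without pool 7. Leaving out a pool also takes out mice. In cortex, calls over all genes went from 502 to 403 without pool 6, 368 without pool 9 and 414 without pool 10. Without pool 7 they rose to 671. A change in the count of the list with a pool left out is thus not shown to be particular to the list. Junb in hippocampus was no longer called in 7 of 19 alternatives, among them without pool 5, 6, 9, 10 or 11 (edgeR adjusted p up to 0.32). Dusp1 in the mean of both regions was no longer called in 6 of 12 alternatives, and without pool 6 it was at -0.24 (limma adjusted p = 0.60). The FAD IgG cortices of pools 9 and 10 had the highest ribosomal RNA shares of all cortices, 10.6% and 12.4%. They also held the lowest FAD IgG cortical levels of Fos (12.9 and 24.4 CPM), Egr1 (74.8 and 87.3 CPM), Egr4 (20.4 and 22.8 CPM) and Arc (54.4 and 83.4 CPM). In hippocampus the highest shares were 17.3%, in a WT mouse of pool 8, and 12.8%, in the FAD IgG mouse of pool 9. That FAD IgG mouse had the lowest FAD IgG hippocampal levels of Nr4a1 (9.64 CPM), Junb (61.2 CPM) and Dusp5 (13.6 CPM), but not of Arc. That WT mouse had the lowest WT hippocampal levels of Dusp5 (16.9 CPM) and Junb (91.8 CPM). With the ribosomal share as a covariate, 4 genes of the list instead of 1 were called in cortex and 5 instead of 3 in hippocampus. Over all genes, 814 instead of 502 of 12968 were then called in cortex and 992 instead of 623 of 12728 in hippocampus.

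In FAD CD38 mice against the same WT mice, fewer genes of the list were called in hippocampus and in the mean of both regions. The count in cortex was the same, and the median of the list lay near 0. In cortex Npas4 fell and no gene rose, against 1.23% lower and 3.3% higher of all genes. In hippocampus Nr4a1 fell and Klf6 rose, against 0.754% lower and 4.56% higher. Over the mean of both regions Npas4, Dusp1 and Nr4a1 fell and Klf6 rose, against 2.45% lower and 5.81% higher. Values below 0 were 20 of 39 in cortex, 19 of 38 in hippocampus and 20 of 39 in the mean of both, with medians of -0.0062, 0.012 and -0.012. Both comparisons with WT share the WT mice, so likeness between them is not independent.

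Npas4 in cortex had a log2 fold change of -1.49 (SE 0.234, edgeR adjusted p = 0.00012) and was lower in 7 of 7 pools; without the mouse of pool 7 it was -1.33 (adjusted p = 0.00042). Nr4a1 in hippocampus was at -0.57 (SE 0.148, edgeR adjusted p = 0.0252), lower in 7 of 7 pools, and at -0.58 without that mouse (adjusted p = 0.0315). Its call was lost in 6 of 19 alternatives, among them without pool 6, 8, 10 or 11 (edgeR adjusted p up to 0.14). Klf6 in hippocampus, at 51.1 to 70.1 CPM in FAD CD38 mice (median 54.8), was at 0.44 (SE 0.125, edgeR adjusted p = 0.0455) and lost its call in 12 of 19 alternatives, that mouse left out among them (adjusted p = 0.0532). In the mean of both regions Klf6 was at 0.36 (limma adjusted p = 0.0049) and kept its call in all 12 alternatives; in cortex its FAD CD38 mice were at 58.8 to 105 CPM (median 85.9). Dusp1, at 26.7 to 119 CPM in FAD CD38 cortex (median 54.1) and 14.5 to 33.9 CPM in hippocampus (median 27.3), had a mean log2 fold change of -0.71 (SE 0.183, limma adjusted p = 0.0077). Microglial sums in FAD CD38 mice were 969 to 1787 CPM in cortex and 889 to 1699 CPM in hippocampus, above all WT mice.

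Without the FAD CD38 mouse of pool 7 the values for FAD CD38 against WT moved below 0. Below 0 were then 29 of 39 genes in cortex, 27 of 38 in hippocampus and 32 of 39 in the mean of both regions, with medians of -0.17, -0.15 and -0.16. In cortex Npas4 and Nptx2 fell (Nptx2 -0.71, SE 0.187, edgeR adjusted p = 0.0317), against 0.442% lower and 2.95% higher of all genes. In hippocampus Nr4a1, Arc (-0.57, edgeR adjusted p = 0.0346) and Dusp5 (-0.54, edgeR adjusted p = 0.0448) fell, against 0.46% lower and 4.6% higher. Over the mean of both regions Npas4, Arc (-0.55), Junb (-0.46), Nr4a1, Dusp1 and Klf10 (-0.35) fell and Klf6 rose, against 1.63% lower and 5.77% higher. This mouse also enters the common estimate of spread. In FAD IgG against WT, the count without it was 1 in cortex, 6 in hippocampus and 12 in the mean of both, against 0.534%, 0.794% and 2.5% of all genes lower and 3.37%, 5.32% and 6.53% higher.

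**Figure D4:**
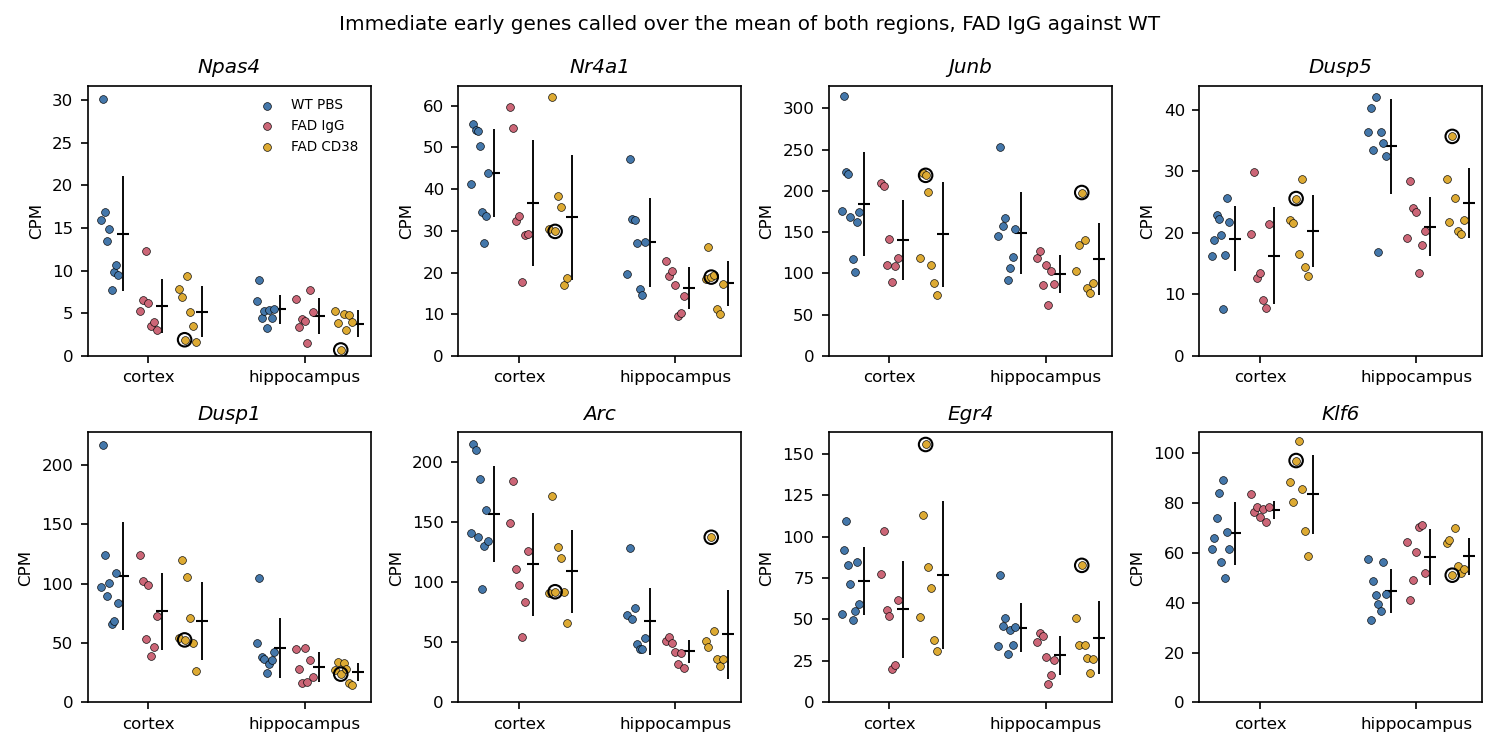
Levels (CPM) of the 8 genes of the list called in any comparison between groups, 1 point per mouse, with mean and SD bars for WT, FAD IgG and FAD CD38 mice in cortex and hippocampus; the FAD CD38 mouse of pool 7 is circled. Npas4 is lower in both FAD groups in cortex, where the WT median of 13.4 CPM exceeds every FAD mouse.

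In FAD CD38 against FAD IgG mice, the comparison that holds the genotype fixed, no gene of the list was called in either region or in the mean of both. Over all genes 0.0% were called in cortex, 0.0% in hippocampus and 0.0% in the mean of both regions. At an unadjusted p under 0.05, 1 gene of the list passed in cortex (Jund), 4 in hippocampus (Gadd45g, Egr4, Homer1 and Arl4d) and 10 in the mean of both regions, where 1.5%, 1.55% and 1.81% of all genes did. DESeq2 called 0 genes of the list in each region as well. The values were mostly above 0: 10 of 39, 7 of 38 and 7 of 39 were below it, with medians of 0.16, 0.30 and 0.19. The largest mean log2 fold changes were those of Fosb (1.16), Inhba (0.91), Nptx2 (0.70), Egr3 (0.64) and Gadd45b (0.62).

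Those values rest on 1 mouse. Without the FAD CD38 mouse of pool 7, 0 genes of the list had an unadjusted p under 0.05 in either region or in the mean of both, where 1.17%, 1.82% and 1.44% of all genes did, and 0.0% of all genes were called in each. The medians were then 0.058, 0.058 and 0.055, with 11 of 39, 14 of 38 and 12 of 39 below 0. Fosb went from 1.16 to 0.18, Inhba from 0.91 to 0.15, Egr3 from 0.64 to 0.11 and Homer1 from 0.52 to 0.19, while Egr4 went from 0.51 to 0.32. Among the levels, Fosb in the other 6 FAD CD38 mice was at 3.45 to 10.6 CPM in cortex and 1.45 to 6.44 CPM in hippocampus, against 1.29 to 8.33 CPM and 1.72 to 4.97 CPM in FAD IgG mice. Npas4 was at 0.01 in cortex and -0.18 in hippocampus with all mice (edgeR adjusted p of 1.0 in both), and at 0.15 and -0.08 without that of pool 7.

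**Figure D5:**
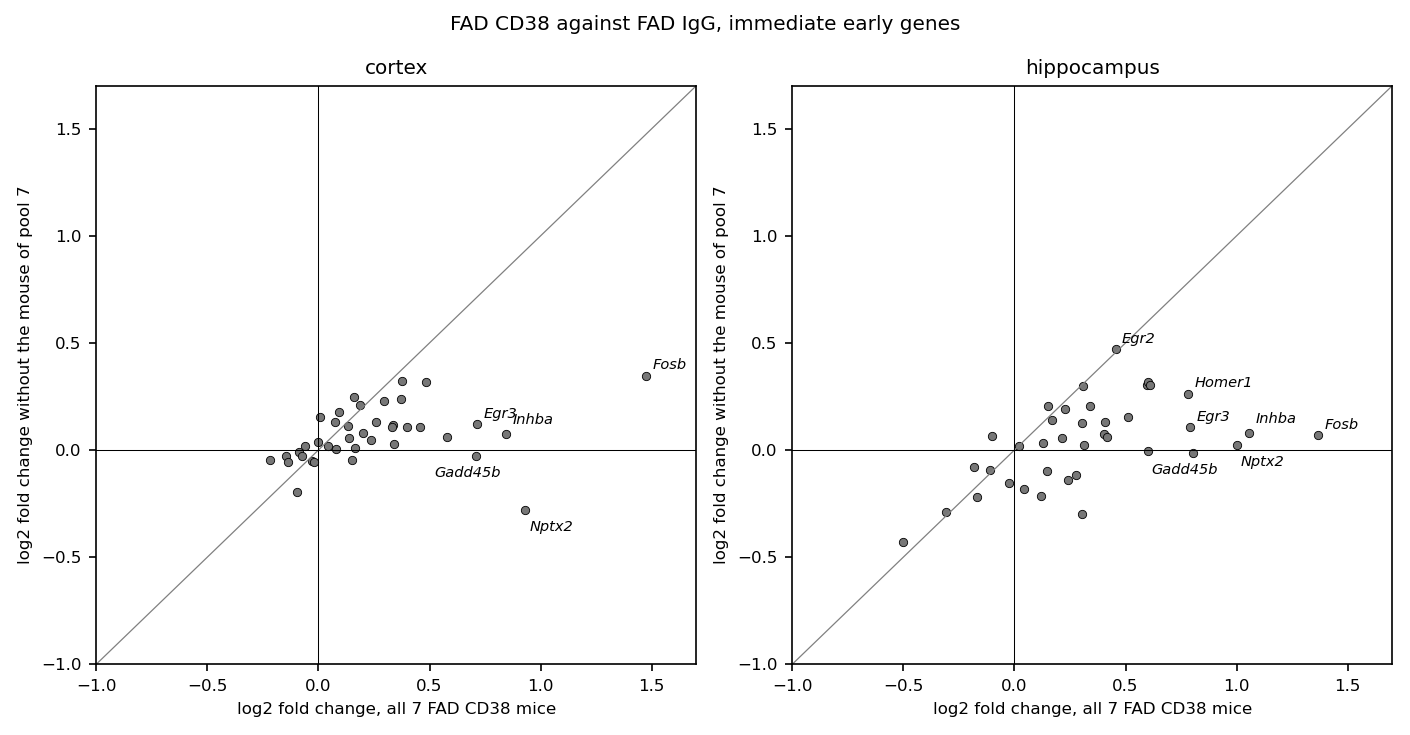
Log2 fold change of FAD CD38 against FAD IgG for each tested gene of the list, with all 7 FAD CD38 mice on the horizontal axis and without the mouse of pool 7 on the vertical axis, in cortex and hippocampus; the diagonal marks equal values. Fosb, Inhba, Nptx2, Egr3 and Gadd45b lie far right of the diagonal and near 0 on the vertical axis, except Nptx2 in cortex, which lies below 0.

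Whether the effects differ between regions was tested with the region difference in the limma model. No gene of the list was called, for FAD IgG against WT (0.232% of all genes called), for FAD CD38 against FAD IgG (0.0%) or for FAD CD38 against WT (0.101%). At an unadjusted p under 0.05 there were 4, 0 and 4 genes of the list, where 7.77%, 2.25% and 11.9% of all genes passed. Without the mouse of pool 7 none was called either. At an unadjusted p under 0.05 there were then 4, 0 and 7 of 39 genes of the list. Of all genes, 8.45%, 2.18% and 9.35% passed. Npas4 came closest for FAD IgG against WT, with a difference (hippocampus minus cortex) of 1.06 on the log2 scale (SE 0.285, limma adjusted p = 0.145). Its lower level is therefore called in cortex and not in hippocampus, but that the effects differ is not shown.

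The regions themselves differed for most of the list. In the same mice, with the mouse as a factor in edgeR, 34 of 38 genes were called between hippocampus and cortex, 7 higher in hippocampus and 27 higher in cortex, where 24.0% of 12434 genes had the higher level in hippocampus and 22.7% in cortex. Cortex was higher in all 4 EGR genes, among them Egr1 (log2 fold change, hippocampus against cortex, -1.63) and Egr2 (-1.48), and in all 8 of the other transcription factors, among them Ier5 (-1.06) and Npas4 (-0.86). Dusp1 (-1.36), Arc (-1.29), Trib1 (-1.19) and Fos (-1.16) were also higher in cortex. Hippocampus was higher in Jun (1.60), Nr4a3 (1.35), Bdnf (0.75), Fosl2 (0.71), Dusp5 (0.49), Gadd45g (0.29) and Nr4a2 (0.22). Families split by region: Jun was higher in hippocampus and Junb (-0.36) in cortex, and Nr4a3 in hippocampus and Nr4a1 (-0.93) in cortex. Btg2, Midn, Tiparp and Gadd45b were not called. Without the mouse of pool 7, 35 genes were called.

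Mice kept their rank across regions for part of the list. Over the 21 mice with both regions and an agreed label, without that of pool 7, Pearson's r between cortical and hippocampal log2(CPM + 1) was above 0 for 36 of 38 genes, with a median of 0.45. After removing group and pool means it was above 0 for 35, with a median of 0.46. For Junb r was 0.88 and Spearman's rho 0.84 (permutation p = 1e-05 for both, the smallest that 100000 permutations give), and r was 0.85 without the 2 mice farthest from the cortical median and 0.81 after removing group and pool. Dusp1 had r = 0.84 and rho = 0.74, Fos 0.76 and 0.72, and Nr4a1 0.75 and 0.78 (permutation p of at most 0.00039 in each). After removing group and pool means, r was 0.76 for Dusp1, 0.66 for Fos and 0.45 for Nr4a1. The permutations moved mice across groups and pools, so their p-values also count shifts shared by a group or pool. Npas4, the gene with the largest group difference in cortex, had r = 0.40, and Bdnf r = -0.37. With the mouse of pool 7 included, r for Bdnf was 0.70 and for Nptx2 0.87, against 0.17 for Nptx2 without it, so these rest on that mouse. In all, 38 such relations were computed, all for genes of the list, and the p-values printed are unadjusted. The same r was not computed over all genes, so positive values are not shown to be particular to the list. Both regions of a mouse share its killing, dissection and library pool.

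Library pools were also tested. In cortex 0 of 39 genes of the list were called between pools by edgeR, where 0.347% of all genes were. In hippocampus Nr4a1 was called (edgeR adjusted p = 0.040), where 0.33% of all genes were. At an unadjusted p under 0.05, 6 of 39 passed in cortex, where 3.67% of all genes did. In hippocampus 9 of 38 passed, where 2.19% of all genes did. Without the FAD CD38 mouse that stood apart, 6 of 39 and 5 of 38 passed, where 3.25% and 2.82% of all genes did. At this looser limit the share of the list was above that of all genes in both regions.

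Other activity-induced genes and the pathway upstream were counted in the same fits. Of 31 further activity-induced genes 27 were tested, and in FAD IgG against WT mice Baz1a, a chromatin remodelling subunit, rose in hippocampus (1.14) and in the mean of both regions (1.07, limma adjusted p = 0.0030), with 17 of 27 below 0 in the mean. In FAD CD38 against WT mice Baz1a (1.29), Rgs2 (0.47) and Nefm (0.44) rose in the mean of both regions, of which Baz1a was called also without the mouse of pool 7. In the same comparison Nefm and Ier3 rose in cortex and Baz1a in hippocampus, and of these Ier3 was not called without that mouse. Of 30 upstream genes (glutamate receptors, calcium channels, kinases, CREB and MEF2 factors), 29 were tested. Rps6ka1, a kinase downstream of ERK, rose in FAD IgG hippocampus (0.72) and in the mean of both regions (0.54), and Ntrk2, the BDNF receptor, rose in the mean of both regions in FAD IgG against WT mice (0.27). In FAD CD38 against WT mice Ntrk2 and Mef2c rose in the mean of both regions. Between FAD CD38 and FAD IgG mice no gene of either set was called by edgeR in either region, or by limma in the mean of both, where 3 and 2 had an unadjusted p under 0.05.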

How the data were processed

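Bulk mcSCRB-seq libraries of cortex and hippocampus from 24 mice (47 wells, 7 pools) were read from 1 deposited table of raw counts with a gene symbol per line. The tools named in the submitters' processing notes are bcl2fastq 2.17 and STAR 2.5.3a. The genome build, annotation, counting program and use of molecular identifiers: not given in the sources used here. The deposited samples are pools, so each well's mouse, region and treatment came from the deposited sample sheet. The replicate was the mouse. The 2 wells of 1 mouse whose name and sheet disagree on treatment entered only the comparison of regions.

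CPM values (counts scaled by the well's total) were computed here from the deposited counts, with a pseudocount of 1 where a log2 level is given. Each region had 1 fit of all 3 groups plus the pool, by the quasi-likelihood test of edgeR 4.0.16 (R 4.3.3) in its robust form, after TMM scaling; filterByExpr ran with min.count 10 and min.total.count 15. The mean of both regions and their difference were fitted with limma 3.58.1 (voom, mouse as a correlated block, estimated correlation 0.26), and the 2 regions were compared by edgeR with a factor for the mouse. Tests were two-sided, and called means a Benjamini-Hochberg adjusted p under 0.05 over all genes tested. Scripts were tested on simulated data. Well totals of 1270918 to 5101368 counts limit the precision of genes at a few CPM. No label gives which mice were killed together, so p-values measure the spread between these mice.

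Alternatives were DESeq2 1.42.0, RLE factors, other filters, no pool, 2 groups only, the ribosomal RNA share as a covariate, quality weights, other uses of the disputed mouse, each pool left out, and, added after seeing the data, leaving out the FAD CD38 mouse of pool 7 or 3 wells above 12% ribosomal RNA. The filter by group used for the mean of both regions was chosen over the filter by region and group together after results of both were seen.

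The members and lists were chosen with earlier results of these data known. Given in full are the genes of the list called in any group comparison, with Npas4, Fos, Arc, Egr1, Nr4a1, Junb, Bdnf, Homer1 and Nptx2. The others are given by counts and a few examples per role. Genes of the further activity-induced and upstream lists are named where called between groups with all mice. Cell type markers are given by counts and sums and named only in part. Roles are from general knowledge, sequences from RefSeq (GRCm38.p6).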

Additional observations from a re-analysis of the deposited data

Results flagged for a closer look

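Within each group of a region, the highest and lowest mouse were set against the rest by Dixon's criterion at 95%, in 252 groups of 1 gene each. A single mouse stood apart in 61. Independent groups of normally distributed values would give about 1 in 20, or 12.6 groups. The groups here share the same mice, so 12.6 is a nominal figure and the excess over it is not a test. Of the 61, 39 are the FAD CD38 mouse of pool 7, always as the highest.

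In its cortex 17 genes stood apart, and the levels (CPM) of the AP-1 and EGR genes were Fosb 120.4, Fosl2 63.0, Jun 43.1, Atf3 18.5, Maff 5.69 and Egr3 254. The effectors were at Bdnf 323, Homer1 306, Nptx2 263, Inhba 168 and Vgf 119.9. The remaining genes were at Gadd45b 157, Klf10 91.9, Gadd45g 77.7, Tiparp 35.1, Midn 30.3 and Pim1 22.3 CPM. The nearest other FAD CD38 mouse was at 10.6 CPM for Fosb, 12.1 CPM for Nptx2 and 46.2 CPM for Egr3.

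In its hippocampus 22 genes stood apart, with the AP-1 and EGR genes at Jun 191, Jund 109.9, Fosb 101, Fosl2 88.9, Atf3 10.5 and Egr3 311 CPM. The effectors were at Homer1 399.7, Bdnf 322, Inhba 317, Nptx2 167, Arc 137, Vgf 81.2 and Arl4d 28.7 CPM. The remaining genes were at Gadd45b 203, Klf10 169, Gadd45g 134, Ier5 106, Midn 54.6, Nr4a3 49.7, Sik1 36.4, Pim1 35.7 and Tiparp 30.1 CPM. Arc, Ier5, Jund, Nr4a3, Sik1 and Arl4d stood apart here and not in its cortex.

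The other 22 are spread over 5 pools. The WT mouse of pool 6 gave 9. In cortex it was the highest for Npas4 (30.2 CPM) and Dusp1 (217 CPM). In hippocampus it was the highest for Junb (254 CPM), Arc (128 CPM), Dusp1 (105 CPM), Egr4 (76.7 CPM), Ier2 (71.0 CPM) and Ier5 (54.7 CPM). It was the lowest in hippocampus for Nr4a2 (40.7 CPM). A FAD IgG mouse of the same pool was the highest for Npas4 in cortex (12.3 CPM, the next at 6.53) and for Egr3 in hippocampus (35.6 CPM). In pool 8, WT hippocampus was highest for Egr3 (45.7 CPM), Midn (21.8 CPM) and Sik1 (8.23 CPM) and lowest for Bdnf (58.0 CPM), Dusp5 (16.9 CPM) and Pim1 (0.654 CPM), and FAD CD38 cortex was highest for Btg2 (30.5 CPM). Single values were Trib1 8.44 and Atf3 4.72 CPM in FAD IgG hippocampus of pool 5, Atf3 2.73 CPM in WT cortex of pool 7 and Tiparp 21.2 CPM in FAD IgG cortex of pool 10.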

How the results depend on the processing

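No log2 fold change of a called gene changed sign under any alternative run. For FAD IgG against WT in cortex the count of called genes of the list, 1, became 2 with DESeq2, 3 without the pool term, 2 with only the compared groups, 4 with the ribosomal share as a covariate, and 1 to 2 when each pool was left out. In hippocampus the count of 3 became 5 with no filter, 1 without the pool term, 5 with only the compared groups, 5 with the ribosomal share, 8 with quality weights, 6 without the FAD CD38 mouse of pool 7, and 1 to 6 with pools left out. The mean of both regions, 8, became 3 without the pool term and 12 without that mouse, and ran from 3 to 9 with pools left out. For FAD CD38 against WT in cortex, 1 became 3 with DESeq2, 2 with no filter, 2 without the pool term, 4 with only the compared groups, 10 with the ribosomal share, 4 with quality weights, 2 with the disputed mouse by the sheet, 2 without the mouse of pool 7, and 1 to 3 with pools left out. In hippocampus, 2 became 3 with DESeq2, 1 with RLE factors, 0 without the pool term, 0 with only the compared groups, 4 with the ribosomal share, 8 with quality weights, 3 without that mouse, 1 by the sheet, and 0 to 1 with pools left out. The mean of both regions, 4, became 9 with quality weights and 7 without that mouse, and ran from 3 to 6. Region differences gave 4 for FAD IgG against WT and 3 for FAD CD38 against WT with quality weights, and the first ran from 0 to 1 with pools left out. FAD CD38 against FAD IgG stayed at 0 in every alternative. The pool test in hippocampus ran from 0 to 1. Calls over all genes moved as well. With quality weights in hippocampus they were 1928 of 12728 instead of 623 for FAD IgG against WT. For FAD CD38 against WT they were 2756 instead of 676. With the ribosomal share in cortex they were 814 of 12968 instead of 502 and 1894 instead of 587, in the same order. Without the pool term in hippocampus they rose to 721 and 793, while the counts of the list fell. A rise of the list with the ribosomal share or quality weights is thus not shown to be particular to it. With only the compared groups, calls over all genes for FAD IgG against WT were 372 of 12759 in cortex and 500 of 12543 in hippocampus. There the list rose while all genes fell. For FAD CD38 against WT they were 819 of 12572 and 374 of 12163, moving as the list did. With no filter they were 713 of 20844 for FAD IgG against WT in hippocampus, a lower share than with it. Where a count moved, the cause was not tested.

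With the mouse as a block, 34 genes differed between hippocampus and cortex, and 27 with no replicate block; the count was 31 to 34 with pools left out. Group comparisons within a region share no replicate numbers. Depth limits genes of few counts, such as Npas4 in hippocampus (1 to 31 counts) and Atf3 (0 to 39 counts).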
